A study of Macaca fascicularis with 32 samples.

Results

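ALDH1A1-low dopaminergic nuclei are nuclei of the substantia nigra (SN) with few transcripts of ALDH1A1, an aldehyde dehydrogenase. These nuclei carried transcripts of the dopamine transporter SLC6A3, the vesicular monoamine transporter SLC18A2 or both. They were chosen as barcodes with 3000 or more UMIs (unique molecular identifiers, each counting 1 captured RNA molecule), 5 or more UMIs of SLC6A3 and SLC18A2 together, and 3 or fewer of ALDH1A1. The rule found 312 nuclei, 169 in the PD library and 143 in the CT library, among 18978 SN barcodes and 56659 barcodes of the 3 brain regions profiled. Levels of SLC6A3, SLC18A2 and ALDH1A1 and the depth of these nuclei follow from that choice and are given as a description.

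The nuclei came from cynomolgus macaques. PD animals belong to a monkey model of Parkinson's disease in which an adeno-associated virus for α-synuclein was combined with poly(ADP-ribose), the chain that PARP enzymes build, and CT animals are its controls. What the controls received, the promoter of the virus, the injection site, the age of the animals and the time after treatment are not given in the sources used here. The labels list 4 SN samples for PD and 4 for CT, but each group's counts form a single matrix in which no barcode is tied to a sample, so each group was 1 library. No difference below has a replicate check, the treatment cannot be told apart from the animals or the library, and every interval is a 95% interval for counting error only.

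Dopamine neurons of the nigra make dopamine with TH and DDC, load it into vesicles with SLC18A2 and take it back up with SLC6A3. In primates and rodents they fall into a ventral tier, rich in ALDH1A1 and SOX6 and known as the more vulnerable in Parkinson's disease, and a dorsal tier in which CALB1, a calcium-binding protein, is common. CALCR, the calcitonin receptor, was fixed for these nuclei as a marker of the ALDH1A1-low population. In nuclei, much unspliced RNA is captured, so a gene's level there need not follow its level in the cell body.

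The rule drew a clean line for the transporters and a less clean one for ALDH1A1. Among barcodes of 3000 or more UMIs with 3 or fewer of ALDH1A1, 651 in PD and 790 in CT had no UMI of either transporter, 6 and 4 had 4 UMIs just outside the limit, and 4 and 6 had 5 UMIs just inside it. ALDH1A1 ran on across its limit: 20 dopaminergic nuclei in PD and 29 in CT had 3 UMIs, and 18 and 27 had 4. With no ALDH1A1 UMI there were 92 members in PD and 58 in CT. In the 500 UMIs above the depth limit lay 0 members in PD and 4 in CT, and in the 500 below it 1 and 0 barcodes that met both gene limits. No barcode of the putamen or caudate libraries had 5 UMIs of the 2 transporters.

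**Figure D1:**
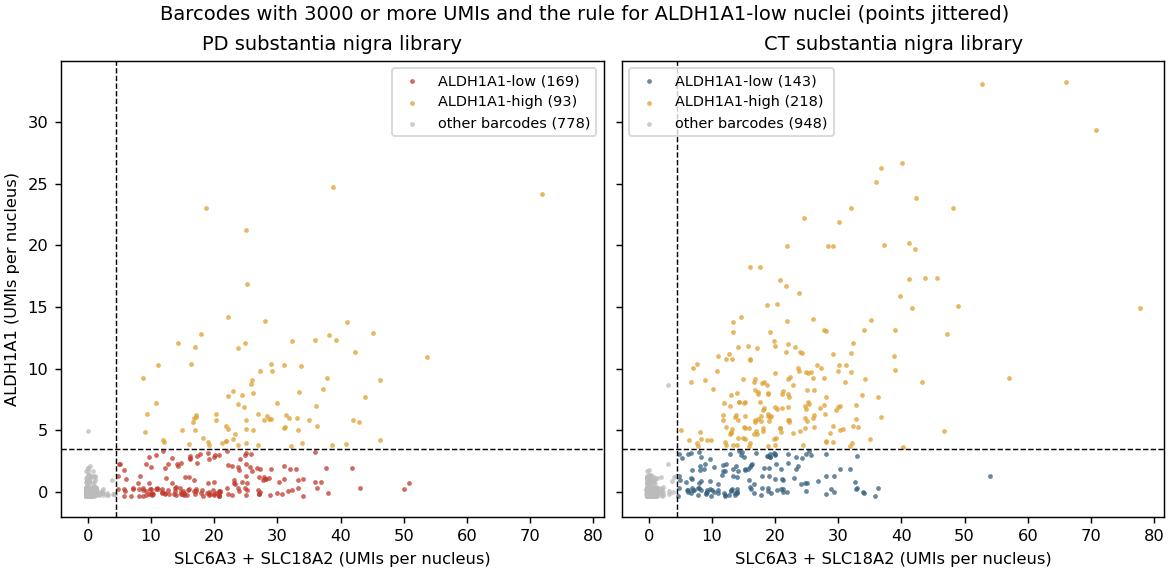
ALDH1A1 UMIs (vertical axis) against SLC6A3 and SLC18A2 UMIs together (horizontal axis) in single barcodes of 3000 or more UMIs, PD library left and CT library right, with the limits of the rule as dashed lines. The transporter limit falls in a sparse zone between the crowd near 0 and the dopaminergic nuclei, whereas ALDH1A1 values run on across their limit without a gap, with 169 ALDH1A1-low and 93 ALDH1A1-high nuclei in PD and 143 and 218 in CT.

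The members were deep for single nuclei. Their median was 12220 UMIs in PD (range 4193 to 31761) and 11159 in CT (3054 to 26560), and they summed to 2266721 and 1758052 UMIs. The median number of genes detected was 4172 in PD and 3991 in CT. ALDH1A1-high dopaminergic nuclei, those with 4 or more ALDH1A1 UMIs, were deeper, at medians of 17790 UMIs in PD and 16144.5 in CT; a fixed limit on UMIs places shallow nuclei in the low class more readily. The 2 SN libraries shared 37 barcodes, and none belonged to a member. No doublet was removed; a Scrublet score over 0.25 was given to 4 members in PD (2.37%) and 6 in CT (4.196%), against 2.39% and 1.66% of all SN barcodes.

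Other genes of the dopaminergic type were present. TH, which catalyses the limiting step toward dopamine, was at 56.9 counts per 1000000 UMIs (CPM) in PD and 54.0 in CT, DDC, which makes dopamine from L-DOPA, at 365 and 340, and KCNJ6, the potassium channel subunit that couples to D2 autoreceptors, at 3435 and 3668. In other SN neurons (270 nuclei in PD, 228 in CT, chosen by SYT1 and SNAP25 and at most 1 UMI of the transporters) TH was at 0.776 and 0.508 CPM and DDC at 9.31 and 5.08. At least 1 TH UMI was found in 49.7% of members in PD and 44.8% in CT, and in 1.09% and 0.188% of oligodendrocytes, which should lack it, at median depths of 4336 and 4148 UMIs. Markers of serotonin and noradrenaline neurons stood near 0: TPH2 had 3 UMIs in each library, SLC6A4 had 0 in PD and 5 in CT, and DBH had 0 and 2. GAD1 and GAD2, which make GABA, were at 4.85 and 3.09 CPM in PD and 5.12 and 4.55 in CT, against 202 to 291 CPM in other neurons. The 10 glutamatergic neuron markers summed to 309 CPM in PD members and 218 in CT members, above ALDH1A1-high nuclei (122 and 63.8) and other neurons (199 and 183). Nearly all of that sum came from FOXP2 (204 and 144) and LMX1A, which is also an identity factor of dopamine neurons (102 and 73.4). The glutamate transporters SLC17A6 and SLC17A7 had 3 and 2 UMIs in PD and 0 and 2 in CT, and 5 of the 10 markers were at 0 in PD and 7 in CT.

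CALCR marked a part of these nuclei, not all. It had a UMI in 46 of 169 members in PD (27.2%) and in 6 of 143 in CT (4.196%); in oligodendrocytes the shares were 0.725% and 0.188%. After each nucleus was thinned to 3000 UMIs, the shares were 19.5% in PD and 2.80% in CT. SOX6, a ventral tier factor, was in most members, 67.5% in PD and 75.5% in CT, at 237 and 251 CPM, though below its 391.8 and 366 CPM in ALDH1A1-high nuclei. CALB1 was scarce, at 16.8 CPM in PD and 8.53 in CT. AGTR1, an angiotensin receptor used elsewhere to mark vulnerable nigral neurons, had 0 UMIs in both, which allows up to 3 UMIs in each library's sum. Markers of both tiers were thus found among the members.

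The members made up a larger part of dopaminergic nuclei in PD. Of 262 dopaminergic nuclei in PD, 64.5% were ALDH1A1-low (58.4 to 70.3, exact binomial interval), against 39.6% of 361 in CT (34.5 to 44.9), a ratio of 1.63 (1.30 to 2.05). Of all SN barcodes they were 1.88% in PD (1.61 to 2.18) and 1.43% in CT (1.21 to 1.69), a ratio of 1.31 (1.04 to 1.65). ALDH1A1-high nuclei were 1.03% of SN barcodes in PD and 2.19% in CT, a ratio of 0.473 (0.367 to 0.606). All dopaminergic nuclei together were 2.91% in PD and 3.62% in CT. A share of barcodes depends on how many other nuclei each library captured, and fewer ALDH1A1-high nuclei and less ALDH1A1 RNA per nucleus cannot be told apart from a share alone. Among members themselves, ALDH1A1 was at 63.1 CPM in PD and 97.3 in CT.

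**Figure D2:**
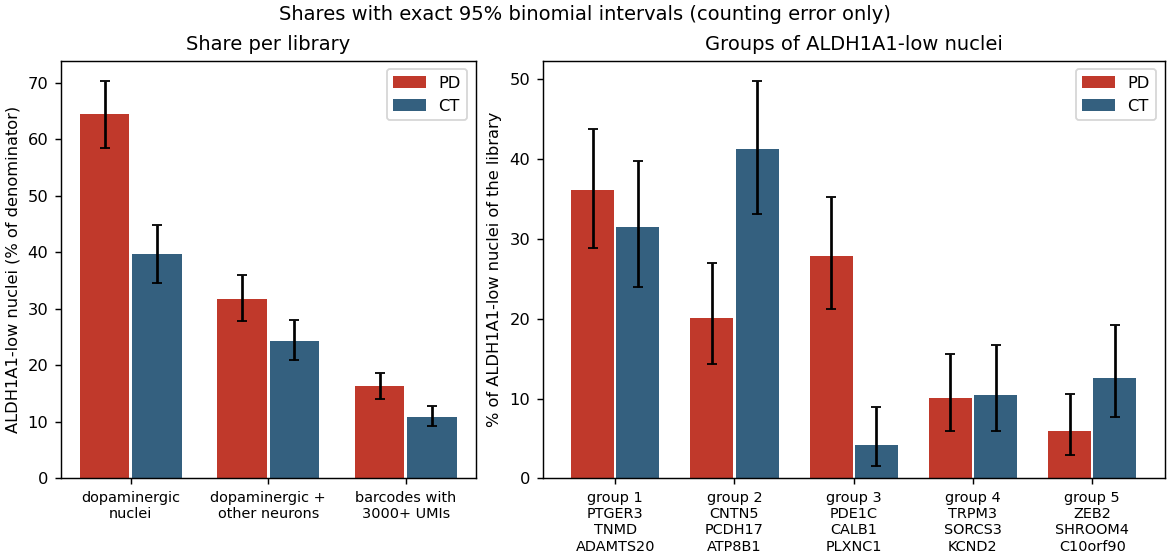
Left, ALDH1A1-low nuclei as a percentage of 3 denominators in the PD and CT libraries; right, the percentage of each library's ALDH1A1-low nuclei in 5 groups found by clustering, labelled with their 3 leading genes; bars start at 0 and lines are exact 95% binomial intervals. The PD bar is above the CT bar for all 3 denominators (64.5% against 39.6% of dopaminergic nuclei), and group 3 holds 27.8% of members in PD and 4.196% in CT.

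Set against ALDH1A1-high nuclei of the same library, the members' summed RNA held more PDE1C, IL1RAPL2 and cadherin transcripts and less CNTN5 and OPCML. These are sums, and the groups of nuclei given further on did not share them evenly. Genes with 50 or more UMIs over both classes in each library could be compared (7979), and 35 of them (0.439%) were at least 2-fold higher in members in both libraries, whereas 7 (0.0877%) were at least 2-fold lower. Because the classes were divided on ALDH1A1, genes that go with it had to differ, and these values are a description. PDE1C, a calmodulin-dependent phosphodiesterase, had the clearest excess, at 72.8 CPM in members against 6.47 in ALDH1A1-high nuclei in PD, and 38.7 against 3.97 in CT. It is no marker of dopamine neurons: oligodendrocytes had 130 CPM in PD and 64.9 in CT.

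The other genes ranked highest against ALDH1A1-high nuclei were IL1RAPL2, a synaptic adhesion protein of the interleukin-1 receptor family (453 against 57.7 CPM in PD, 436 against 73.1 in CT), the cadherins CDH4 and CDH6, VWA5B1, the secretin receptor SCTR, TOX, the NMDA receptor subunit GRIN2A, ABTB2 and the potassium channel subunit KCNAB1. CDH4 was at 356 CPM in members against 79.4 in ALDH1A1-high nuclei in PD, and 242 against 42.6 in CT. LMX1A, a factor of dopamine neuron development, was also higher in members, at 102 against 35.3 CPM in PD and 73.4 against 9.79 in CT. Lower in members were CNTN5, a contactin (120 against 345 CPM in PD, 96.1 against 291 in CT), OPCML, a cell adhesion protein (573 against 1269, and 844 against 1700), TGFBR2, PCDH17, F5, OSBPL3, KCNJ3, ASTN2, RORB and LIN7A. The ranking required the same direction in PD and CT.

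**Figure D3:**
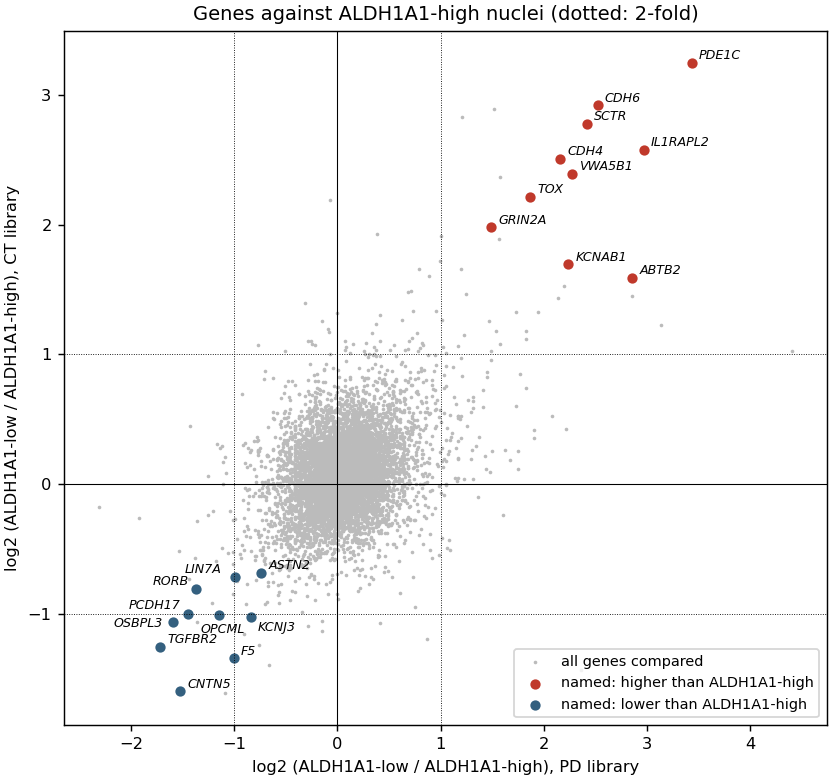
Log2 ratio of ALDH1A1-low to ALDH1A1-high nuclei in the PD library (horizontal axis) and in the CT library (vertical axis) for the 7979 genes compared, dotted lines at 2-fold, with the 10 named genes per direction coloured. Most genes lie near 0 on both axes, and PDE1C is farthest to the upper right, at 3.43 in PD and 3.25 in CT, with CNTN5 at −1.52 and −1.59.

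By gene list, the 2 classes differed in oligodendrocyte and mitochondrially encoded RNA. All 12 measured oligodendrocyte markers were higher in members than in ALDH1A1-high nuclei in both libraries (median log2 0.42 in PD and 0.47 in CT, against 0.04 and 0.07 over all genes), with 15 markers summing to 772 against 573 CPM in PD and 1146 against 837.5 in CT. In oligodendrocytes themselves the sum was 16248 and 19439 CPM. The measured mitochondrially encoded genes, 3 of 13, were lower in members in both libraries (median −1.93 in PD, with all 3 past 2-fold, and −0.26 in CT, with none). Of 28 glutamate receptors 18 were higher in members in PD and 16 in CT, near the 56.6% and 61.5% of all genes that were higher, and nothing is read from that count. The part of oligodendrocyte RNA in these values was not tested gene by gene.

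The members fell into 5 groups when clustered over both libraries without the 224 genes that differed 2-fold between PD and CT. Leading genes were taken from the genes kept for clustering. Their higher level in their own group follows from how the groups were built and is a description. Group 1 (61 nuclei in PD, 45 in CT) was led by PTGER3, a prostaglandin E receptor, TNMD and ADAMTS20. Group 2 (34 and 59) was led by CNTN5, PCDH17 and ATP8B1 and also by ALDH1A1 itself, at 138 CPM in PD and 159 in CT. F5, OPCML, KCNJ3 and OSBPL3 were among its leading genes too. Like CNTN5 and PCDH17, they were named above as lower in members than in ALDH1A1-high nuclei, so in these genes group 2 leaned toward the ALDH1A1-high class. Group 3 (47 and 6) was led by PDE1C, CALB1, PLXNC1 and TOX. Group 4 (17 and 15) was led by the cation channel TRPM3, SORCS3 and the potassium channel KCND2. Group 5 (10 and 18) was led by ZEB2, SHROOM4 and C10orf90 and held much MBP, the myelin basic protein, at 1220 CPM in PD and 1834 in CT, against 164 to 248 in the other groups. ST18, used here as an oligodendrocyte marker, was also among group 5's leading genes, at 248 CPM against 23.8 in the other members. The part of oligodendrocyte RNA in group 5 was not tested. No group is given a cell type name.

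The libraries differed in groups 2 and 3, by an amount that depended on how the groups were built. Group 3 was 27.8% of members in PD (21.2 to 35.2) and 4.196% in CT (1.56 to 8.91), a ratio of 6.63 (2.83 to 19.0). When all genes were used for clustering, it held 51 nuclei in PD and 11 in CT, 30.2% and 7.69% of members, and the ratio was 3.92 (2.02 to 8.35). Group 2 was 20.1% of members in PD and 41.3% in CT, a ratio of 0.488 (0.310 to 0.756), which was 0.411 (0.262 to 0.631) with all genes. Groups 1, 4 and 5 had ratios of 1.15, 0.959 and 0.470, with intervals that spanned 1. Of group 3's 53 nuclei 47 came from 1 library (51 of 62 with all genes), so a type of nucleus and a property of that library cannot be told apart there. Its leading genes PDE1C, CALB1, PLXNC1 and TOX also differed between PD and CT over all members, by log2 0.91, 0.95, 0.84 and 0.80, just under the 2-fold at which genes were left out.

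Group 3 had the most CALB1 and CALCR and the least SOX6 of the 5 groups. CALB1 and SOX6 were not left out of the clustering, so their levels by group are a description. CALCR was left out of the first clustering but not of the one with all genes. CALB1 was at 60.9 CPM there in PD and 32.1 in CT (3 UMIs, 6.62 to 93.85), and at 10.8 CPM or less in each other group. With all genes used for clustering, CALB1 was at 52.4 and 14.7 CPM in that group, and SOX6 at 14.75 and 21.98. SOX6 was at 7.62 CPM in PD and 74.9 in CT in the group as first built, where the other groups had 163 to 512. That CT value rested on 7 UMIs (30.1 to 154.4), 5 of them in 1 nucleus that left the group with all genes. CALCR was at 539 CPM in PD (283 UMIs in 37 of 47 nuclei) and 150 in CT (14 UMIs in 3 of 6). Of the 336 CALCR UMIs of PD members 283 thus lay in that group. Over all PD members, nuclei with a CALCR UMI had SOX6 in 23.9% (12.6 to 38.8) and CALB1 in 37.0%, against 83.7% (76.0 to 89.8) and 8.13% of nuclei with none, at median depths of 10925 and 13198 UMIs. In CT 4 of 6 nuclei with a CALCR UMI had SOX6 (66.7%, 22.3 to 95.7), against 75.9% (67.9 to 82.8) of those with none, so the low SOX6 share was measured in PD and not in CT.

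PDE1C and CNTN5, which led the comparison with ALDH1A1-high nuclei, were spread unevenly over the groups. Both were kept for the clustering and led groups 3 and 2, so this spread is a description and no separate result. Of 165 PDE1C UMIs in PD members 131 lay in group 3 (249 CPM in PD, 407 in CT), whereas groups 2 and 4 had 4.765 and 4.41 CPM in PD and 5.99 and 5.38 in CT, close to ALDH1A1-high nuclei. CNTN5 was at 517 CPM in PD and 184 in CT in group 2, in PD above the 345 CPM of ALDH1A1-high nuclei, and at 11.4 and 32.1 in group 3.

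Between PD and CT, 8244 genes had 50 or more UMIs over both libraries' members. At least 2-fold higher in PD were 108 (1.31%), and 116 (1.41%) were at least 2-fold lower. The median log2 ratio over all genes was −0.01, with 49.1% of genes higher and 50.9% lower in PD. A gene near the minimum could pass it through the library in which it was higher, so counts over the measured members of short, low lists are descriptions. The same holds for the ratios of single genes that passed mostly through 1 library. The genes described next were ranked by the interval bound nearest to 0.

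KCNIP1, an auxiliary subunit of Kv4 potassium channels, led. It was at 152 CPM in PD (136 to 169, exact Poisson interval) and 6.26 in CT (3.12 to 11.2), a log2 ratio of 4.54 (3.74 to 5.62). In PD 39 nuclei had a UMI and 25 had 5 or more, up to 30, whereas in CT 11 nuclei had exactly 1 UMI each. The difference is therefore one of a minority of nuclei with high counts, and the 5 highest gave 35.8% of the PD UMIs. In oligodendrocytes KCNIP1 was at 59.3 CPM in PD and 45.9 in CT, above the CT members. By group, it was at 298 CPM in PD and 8.74 in CT in group 1, a ratio of 34.1 (14.4 to 106), and in group 2 it had 0 and 4 UMIs. Group 3 had 30 UMIs in 6 PD nuclei and 0 in CT, and group 5 had 25 in 2 PD nuclei and 0 in CT. In group 4 there were 3 and 2 UMIs. ALDH1A1-high nuclei had 29.4 CPM in PD and 17.5 in CT, and other neurons 386 and 464.

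CALCR came next, at 148 CPM in PD (133 to 165) and 14.8 in CT (9.66 to 21.7), a log2 ratio of 3.30 (2.75 to 3.96). At least 5 UMIs were found in 29 nuclei in PD and 4 in CT, and the highest nucleus had 25 and 6. Without group 3 the log2 ratio was 2.03, and without the group 3 built from all genes it was 1.05. Within group 3 CALCR was 3.60 times as high in PD (2.11 to 6.66). RAMP1, a membrane partner that turns the calcitonin receptor into an amylin receptor, was at 16.8 CPM in PD and 35.3 in CT (log2 −1.07, −1.70 to −0.47). KCNIP1 and CALCR mostly sat in different nuclei: 4 of 46 PD nuclei with a CALCR UMI had KCNIP1 (8.70%, 2.42 to 20.8), against 35 of 123 without (28.5%, 20.7 to 37.3).

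**Figure D4:**
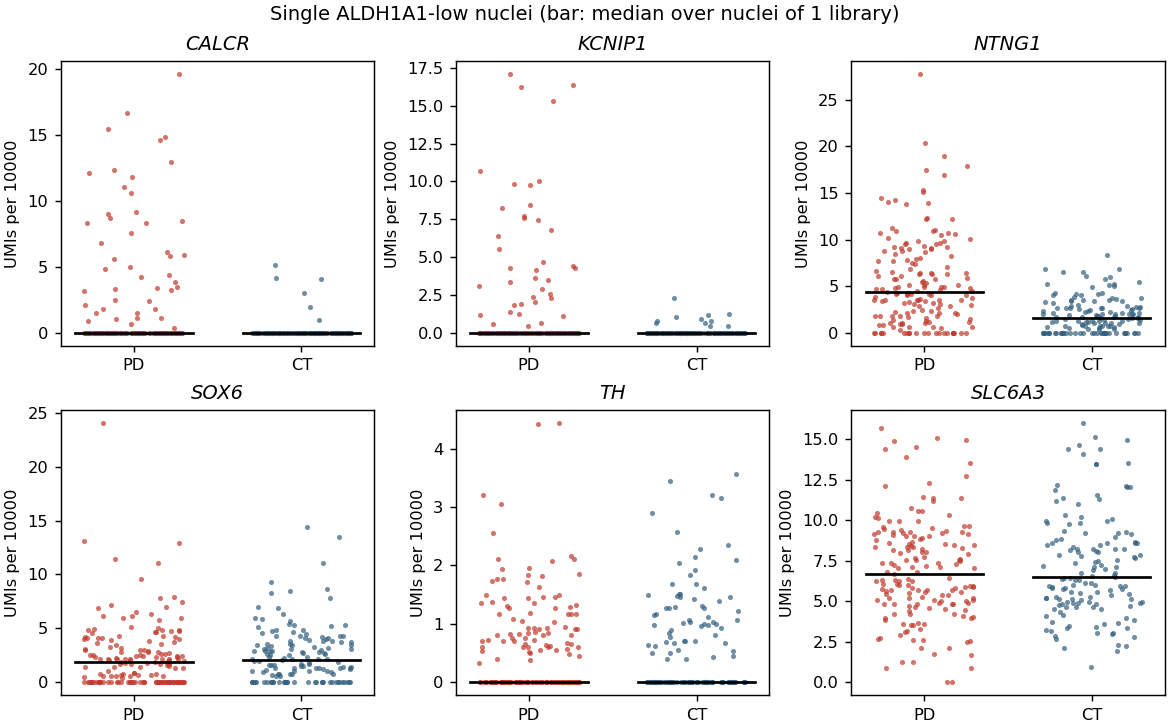
UMIs per 10000 of 6 genes in single ALDH1A1-low nuclei of the PD (left) and CT (right) libraries, with the median over nuclei as a bar; nuclei of 1 library are not replicates. CALCR and KCNIP1 medians are 0 in both libraries with a tail of high nuclei in PD (46 and 39 nuclei with a UMI, against 6 and 11 in CT), NTNG1 is higher over most PD nuclei, and SOX6, TH and SLC6A3 overlap.

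NTNG1, the axonal adhesion protein netrin-G1, differed more broadly. It was at 546 CPM in PD (516 to 577.5) and 195 in CT (175 to 217), a log2 ratio of 1.48 (1.31 to 1.66), with a UMI in 147 of 169 nuclei in PD and 105 of 143 in CT. It was higher in PD within groups 1, 2 and 3 (ratios 3.13, 2.12 and 2.25), and its ratio was 1.03 (0.543 to 1.996) in group 4 and 1.55 (0.955 to 2.50) in group 5. In ALDH1A1-high nuclei its log2 ratio was 0.77 and in other neurons 0.04.

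Further genes high in PD had lower counts. EBF2, NPFFR2, HFM1, ATP6AP1L and ADAM5 reached the minimum chiefly through their PD counts. EBF2, a transcription factor, had 59 UMIs in PD and 7 in CT; 52 of the 59 lay in group 3, and without that group the log2 ratio of 2.62 was 0.14. NPFFR2, a receptor for neuropeptide FF, had 83 and 10 UMIs (log2 2.63). PLEKHG4B, PLEKHA3, a lipid-binding protein of the Golgi, and GTF2A1L, a germ cell form of a general transcription factor, lay between log2 2.26 and 2.71, though PLEKHA3 was at 0.86 after thinning. HFM1, a meiotic helicase, had 51 and 3 UMIs (3.51, 2.09 to 6.05), ATP6AP1L, a relative of a proton pump subunit, 97 and 10 (2.85), ADAM5 81 and 10 (2.59), and GTPBP6, a mitochondrial ribosome factor, 152 and 31 (1.91).

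On the lower side, SLIT2, a secreted axon repellent, was at 44.1 CPM in PD (35.9 to 53.7) and 117 in CT (101 to 134), a log2 ratio of −1.40 (−1.76 to −1.05). It was lower in PD in all 5 groups, with ratios from 0.260 to 0.563, of which group 4's interval reached 1.29. FRAS1, an extracellular matrix protein, was at 31.3 CPM in PD and 128 in CT (−2.02), and by group its ratio ran from 0.0408 in group 1 to 0.951 in group 4. CPLX2, a complexin that clamps vesicle fusion, was at 19.9 and 55.7 CPM (−1.48).

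P4HA3, a collagen prolyl hydroxylase, had 17 UMIs in PD and 81 in CT (−2.59), and BOP1, a ribosome assembly factor, 12 and 61 (−2.67). Both reached the minimum chiefly through their CT counts. CINP, CR1L, TTLL9, the Wnt receptor ROR1, MTUS1 and the transporter ABCA9 had log2 ratios between −1.89 and −1.23. After thinning to 3000 UMIs per nucleus CINP was at −1.28 and CR1L at −1.02. CR1L has a close relative, CR1, and reads of such copies may be split or lost in counting.

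These differences were not equally bound to the ALDH1A1-low nuclei. All 24 named genes had the same direction in ALDH1A1-high nuclei, which share the library, and 8 of the 12 higher and 8 of the 12 lower ones were there at least 2-fold. Of 9061 genes compared in those nuclei, 4735 were higher in PD, 123 of them at least 2-fold. Lower were 4326, of which 183 were at least 2-fold. How many of all genes kept their direction is not given, here or for the other sets below. CALCR was among the named genes past 2-fold (log2 1.68), but its 6 UMIs in PD and 4 in CT lay under the minimum. FRAS1 was another (−2.70, 21 and 311 UMIs). Of the 12 higher genes, HFM1, ATP6AP1L and GTPBP6 were at least 2-fold higher in all of 5 other sets. These were ALDH1A1-high nuclei, other SN neurons, oligodendrocytes and the whole putamen and caudate libraries. Of the 12 lower ones, BOP1, CINP and CR1L were at least 2-fold lower in all 5. By direction alone, 5 of the 12 higher and 9 of the 12 lower genes went the same way in all 5. P4HA3 and ABCA9 were at least 2-fold lower in all but oligodendrocytes. KCNIP1 was lower in PD in other neurons (log2 −0.26), and NTNG1 was lower in the putamen and caudate libraries (−0.39 and −0.31). CALCR was higher in other neurons (2.12), had 2 and 1 UMIs in oligodendrocytes, and had log2 ratios of −0.51 and 0.16 in putamen and caudate. SLIT2 was higher in PD in other neurons, oligodendrocytes, putamen and caudate (0.35, 0.68, 0.59 and 0.45), and FRAS1 was higher in other neurons (0.80) and oligodendrocytes (0.52). Differences between these classes were not tested.

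**Figure D5:**
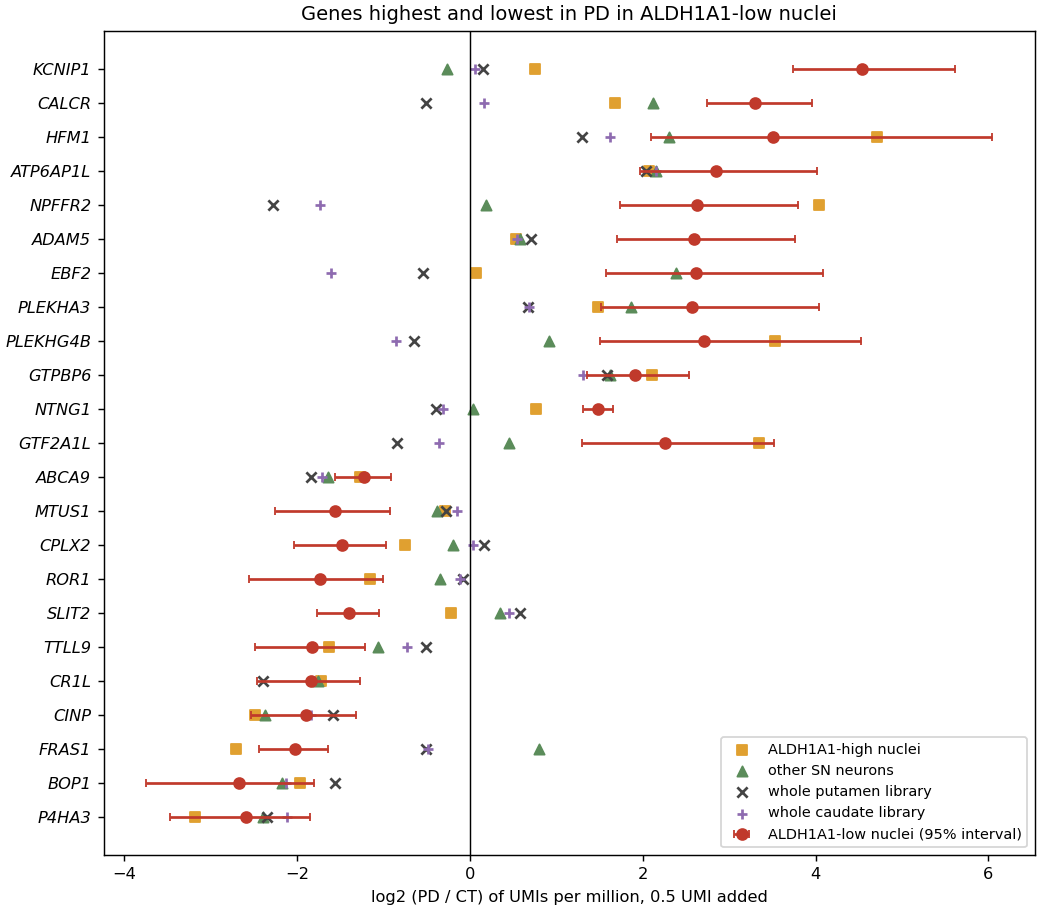
Log2 PD to CT ratios of the 12 genes highest and 11 of those lowest in PD in ALDH1A1-low nuclei (red, with 95% counting intervals) beside ALDH1A1-high nuclei, other SN neurons and the whole putamen and caudate libraries. HFM1, ATP6AP1L, GTPBP6, BOP1, CINP and CR1L lie on the same side everywhere, as do ADAM5, PLEKHA3, P4HA3, TTLL9, ROR1, MTUS1 and ABCA9. KCNIP1 (4.54 in ALDH1A1-low nuclei, 0.76 in ALDH1A1-high) and SLIT2 (−1.40 and −0.22) stand apart from the other sets.

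No measured gene of dopamine handling differed 2-fold. Of all genes compared, 1.31% were at least 2-fold higher in PD and 1.41% lower, so nothing is read from that count. Leaving out the 2 transporters of the rule, 8 of 10 measured synthesis and transport genes were higher in PD and 2 lower. Their median log2 was 0.09, and 49.1% of all genes were higher. SLC18A2 was at 765 CPM in PD and 641 in CT (log2 0.26), and SLC6A3 at 686.5 and 699 (−0.03). TH had a log2 ratio of 0.07 (−0.32 to 0.47). SLC10A4, a vesicular protein of aminergic neurons, was at 34.9 and 19.3 CPM (0.84, 0.25 to 1.48), and QDPR, which recycles the cofactor of TH, at 101 and 158 (−0.65, −0.91 to −0.39).

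The identity factors were divided, 6 of 11 higher in PD and 5 lower. EBF3 was at 463 CPM in PD and 302 in CT (0.61, 0.46 to 0.77) and LMX1A at 102 and 73.4 (0.47, 0.16 to 0.80). NR4A2, a nuclear receptor that maintains dopamine neurons, was at 50.3 and 74.5 (−0.57, −0.94 to −0.19). The list's median of 0.12 was −0.05 without nuclei holding a CALCR UMI and −0.03 without group 3. Of 19 dorsal tier genes 3 were measured: CALCR, CALB1 (38 UMIs in PD and 15 in CT; 0.95, 0.08 to 1.94) and CBLN1 (57 and 31; 0.50, −0.14 to 1.19). The first 2 reached the minimum chiefly through their PD counts, so their common direction is not read as a result. Leaving out ALDH1A1, which the rule limited, 6 ventral tier genes were measured, 3 higher and 3 lower in PD.

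Genes tied to the model and the disease lay on both sides, in numbers not read as a result beside the 50.9% of all genes that were lower in PD. Of 25 measured Parkinson's disease genes 10 were higher in PD and 15 lower (median −0.04). None differed 2-fold, beside 1.31% of all genes at least 2-fold higher and 1.41% lower. VPS13C, a lipid transfer protein, was at 362 CPM in PD and 246 in CT (0.56, 0.39 to 0.73), and UCHL1, a neuronal ubiquitin hydrolase, at 210 and 266 (−0.34, −0.53 to −0.15). Of 13 poly(ADP-ribose) genes 5 were higher and 8 lower (median −0.05). TNKS, tankyrase, was at 407 and 317 CPM (0.36, 0.21 to 0.52), and, named for their role, PARP1 was at 19.9 and 22.2 (−0.16, −0.81 to 0.50) and PARG, which removes the polymer, at 125 and 123 (0.02, −0.24 to 0.29).

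Cholesterol genes were mostly lower in PD and proteasome genes mostly higher. Of 17 cholesterol genes 13 were lower in PD, against 50.9% of all genes (median −0.25), and MSMO1, a sterol methyl oxidase, had 21.2 CPM in PD and 30.15 in CT, a log2 ratio of −0.51 (−1.10 to 0.08). Of 20 proteasome and ubiquitin genes 15 were higher (0.14), against 49.1% of all genes. Among them were PSMD2 (0.46, 0.08 to 0.86) and PSME4 (0.40, 0.14 to 0.67). Of 17 heat shock genes 12 were higher (0.12), with HSP90B1 at 0.91 and HSPD1 at 0.69, but the median was −0.23 after thinning and −0.15 among genes of 200 or more UMIs. Of 21 autophagy and lysosome genes 10 were higher and 11 lower, with TBK1 at 0.73 and CTSL at 0.81 against SQSTM1, the p62 receptor, at −0.65. NAD and axon survival genes were 8 of 12 higher (0.13), but that median was also negative under 3 other settings. The cholesterol, proteasome and heat shock directions were not particular to the members. In ALDH1A1-high nuclei 13 of 18 cholesterol genes were lower in PD (median −0.18). There, 15 of 23 proteasome genes (0.115) and 12 of 18 heat shock genes (0.21) were higher.

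Mitochondrial and stress genes had few members with enough counts. Of 13 mitochondrially encoded genes 3 were measured, with COX2 at 19.9 CPM in PD and 10.8 in CT (0.86, 0.07 to 1.73) and COX3 at 23.8 and 21.6 (0.13, −0.49 to 0.78). COX3 in ALDH1A1-high nuclei was at 119 CPM in PD and 24.6 in CT (2.27), a larger ratio than in the members; that contrast was not tested. Nuclear respiratory genes were 8 higher and 7 lower of 15, with ATP5MC3, an ATP synthase subunit, at 22.5 and 9.67 CPM (1.19, 0.40 to 2.10). BCL2, which blocks apoptosis, was at 70.6 and 32.4 CPM (1.11, 0.68 to 1.59), and GSDME, a pore-forming gasdermin, at 21.2 and 48.9 (−1.20, −1.75 to −0.68).

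Antigen presentation genes had few counts. HLA-E was the single measured MHC class I gene of 11 in the annotation, with 41 UMIs in PD and 15 in CT (1.05, 0.20 to 2.04). It reached the minimum chiefly through its PD counts and belongs to a family whose reads may be split between copies. NLRC5, the class I transactivator, had 27 and 4 UMIs and TAP1, a peptide transporter, 13 and 2, both under the minimum. The other unmeasured class I genes are not given, so no direction is read for the class. In oligodendrocytes NLRC5 was at 68.4 CPM in PD and 16.2 in CT, against 11.9 and 2.28 in members, so free RNA from other cells could give such counts and its part was not tested. Of 6 measured interferon genes 3 were higher and 3 lower; BTN3A2 was at 27.8 and 9.10 CPM (1.58, 0.80 to 2.50) and EIF2AK2, the RNA-activated kinase PKR, had 170 and 83 UMIs (0.66, 0.28 to 1.06).

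Excitability and synapse genes lay on both sides. Of all genes compared, 49.1% were higher and 50.9% lower in PD, and nothing is read from the list counts. Synaptic vesicle genes were 10 higher and 18 lower of 28 (median −0.12). Besides CPLX2, the priming factor UNC13C was at 74.6 CPM in PD and 150 in CT (−1.003, −1.29 to −0.72) and synaptophysin, SYP, at 75.4 and 120 (−0.67), whereas synapsin SYN1 was at 112 and 55.7 (0.997, 0.66 to 1.35). Potassium channel genes were 12 higher and 13 lower of 25: KCNB2 was at 170 and 80.2 CPM (1.08, 0.80 to 1.38) and the sodium-activated channel KCNT2 at 50.3 and 107 (−1.09, −1.44 to −0.75). Calcium and sodium channel genes were 15 and 18 of 33. CACNA1D, the pacemaking L-type channel Cav1.3, was at 693.5 and 889 CPM (−0.36, −0.46 to −0.26), RYR3, a calcium release channel, at 737 and 1105 (−0.58, −0.68 to −0.49), and SCN1A at 56.9 and 31.3 (0.86, 0.40 to 1.35).

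Receptor and guidance genes likewise split, and nothing is read from their counts beside the 50.9% of all genes that were lower in PD. Glutamate receptors were 14 higher and 14 lower of 28, and receptors for GABA, glycine, acetylcholine and serotonin 8 and 14 of 22 (median −0.15), with GABRB2 at 121 CPM in PD and 171 in CT (−0.50). Axon growth and guidance genes were 12 and 13 of 25, with SLIT3 at 189 and 97.8 CPM (0.95, 0.69 to 1.22), opposite to SLIT2. OPRK1, the kappa opioid receptor, was at 24.7 and 9.67 CPM (1.32, 0.55 to 2.23). Of 18 immediate early genes, which mark recent activity, 2 passed the minimum: HOMER1 was at 113 and 94.99 CPM (0.25, −0.04 to 0.54) and BDNF at 104 and 127 (−0.29, −0.56 to −0.01). Under the minimum, FOS had 2 UMIs in PD and 19 in CT, NPAS4 1 and 15, and NR4A1 2 and 18. In ALDH1A1-high nuclei FOS was at 2.94 CPM in PD and 10.3 in CT and NPAS4 at 1.77 and 8.21. FOS, NPAS4 and NR4A1 were chosen for mention after their values were seen.

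RNA of other cell types moved with the comparison. All 12 measured oligodendrocyte markers were lower in PD members (median −0.49), and the 15 markers summed to 772 CPM in PD and 1146 in CT, with none at 0. The direction was not particular to members, since all 13 measured in ALDH1A1-high nuclei were lower in PD (median −0.51). TF, transferrin, a gene of both the iron and the oligodendrocyte list, was at 29.6 and 71.7 CPM (−1.27), and the median of 10 iron genes was −0.10. Group 5, which held the most MBP, was 5.92% of members in PD and 12.6% in CT; without it the marker median was −0.32. Astrocyte markers summed to 668 and 722 CPM, microglial ones to 56.5 and 78.5, and vascular ones to 151 and 314, the last with 4 of 15 genes at 0 in each library; EBF1, counted there but also a neuronal factor, gave 131.5 and 291 of that sum. The part of such RNA in the differences above was not tested, apart from the values without group 5.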

How the data were processed

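Per the file headers, the deposited matrices hold raw UMI counts per gene and barcode, which the authors obtained from Cell Ranger 7.0.1 and left unnormalized; the submitters' processing notes name the same version. The notes also name the build hg38, while gene identifiers are of a Macaca fascicularis annotation; the extract protocol names Macaca mulatta. The 6 matrices list 22316 genes, 16297 with a symbol. Per the labels' protocols, libraries were of the 10x Chromium 3′ v3 kind.

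UMIs of each class were summed per library and divided by the class total (CPM). Library totals were 18692617 UMIs in SN PD and 22198570 in SN CT. Log2 ratios had 0.5 UMI added, genes needed 50 UMIs over both sums, and intervals were exact (Poisson, Clopper-Pearson, or conditional binomial for ratios) at 95%, for counting error only. With 1 library per group no test, SE or p-value was made. Named genes are the 12 per direction (10 against ALDH1A1-high nuclei) whose interval bound nearest to 0 was the largest in size, leaving out mitochondrial, ribosomal, hemoglobin, sex-linked and other cell types' genes, plus list members, up to 6 per list; some of them are not reported here. Oligodendrocytes had 30 or more UMIs summed over myelin genes and at most 2 of SYT1 and SNAP25; other neurons had at least 5 of those 2. Groups were Leiden clusters (scanpy 1.11.5; 1000 variable genes, 15 components, 15 neighbours, resolution 0.5). Scrublet used an expected rate of 0.06. No free-RNA correction was made. Ratio and interval steps were run on simulated sums drawn from a Poisson model, the one the intervals assume. That run checks the arithmetic only, since it left out the clumping of UMIs in single nuclei. The members and lists were chosen with earlier results of these data known.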

Additional observations from a re-analysis of the deposited data

Results flagged for a closer look

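PD to CT intervals in ALDH1A1-low and ALDH1A1-high nuclei were compared for 457 genes named or listed, with enough UMIs in both classes. For 6 of them the intervals lay wholly on opposite sides of no difference. These differences between classes were not tested. The share over all genes is not given, and some of the 457 were named for their PD to CT difference, so nothing is read from the count. SYNPR, synaptoporin, had a log2 ratio of 0.41 (0.20 to 0.63) in ALDH1A1-low nuclei, with 478 UMIs in PD and 278 in CT, and −0.77 (−1.04 to −0.52) in ALDH1A1-high nuclei, with 153 and 583. The netrin receptor UNC5D had 0.60 (0.32 to 0.89) and −0.68 (−0.99 to −0.39). ADRA1A, an adrenergic receptor, had 0.53 (0.03 to 1.05) and −1.17 (−1.69 to −0.71). The calcium channel subunit CACNA2D3 had 0.32 (0.22 to 0.42) and −0.21 (−0.35 to −0.07). LMO3, a ventral tier factor, had −0.45 (−0.61 to −0.28) and 0.14 (0.02 to 0.25), and the glutamate receptor GRM5 had −0.25 (−0.35 to −0.15) and 0.11 (0.04 to 0.18).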

How the results depend on the processing

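No paired analysis was possible because each group is 1 matrix in which no barcode carries a replicate number. Leaving out nuclei with oligodendrocyte genes over 1% of UMIs removed none, so that alternative gave no value. The shares of SN barcodes and of dopaminergic nuclei kept their direction under the other alternatives run, with ratios from 1.345 to 1.59 and from 1.62 to 1.97. Clustering with all genes, added after seeing the data, gave ratios of 0.411 for group 2 and 3.92 for group 3. The counts of genes followed the depth and the minimum: 38 higher and 35 lower in PD after thinning each nucleus to 3000 UMIs, 311 and 370 with a minimum of 20 UMIs, and 22 and 17 with 200. Against ALDH1A1-high nuclei, 10 genes were higher and 1 lower after thinning, 55 were higher with 20 UMIs and 14 with 200, 13 were lower with at most 1 ALDH1A1 UMI, and 21 were higher and 3 lower without group 3, an alternative added after seeing the data. CALCR was 2.03 without group 3. Of 287 values of named genes under alternatives, 276 stayed within their counting interval and 0 changed sign; EBF2 was 1.11 without nuclei holding a CALCR UMI and 0.14 without group 3, KCNIP1 was 3.47 with an ALDH1A1 limit of 200 CPM and 3.44 after thinning, and NTNG1 was 1.04 without CALCR nuclei. Thinning gave CINP −1.28, CR1L −1.02 and PLEKHA3 0.86. HFM1 had 49 UMIs in PD and 0 in CT both without doublets and without group 5, where its fitted 6.22 and 6.14 depend on the 0.5 UMI added. List medians that changed sign were NAD and axon survival (−0.009 with at most 1 ALDH1A1 UMI, −0.028 thinned, −0.050 with 200 UMIs), heat shock (−0.039, −0.233 and −0.153 under the same 3), identity factors (−0.045 without CALCR nuclei, −0.034 without group 3) and iron handling (0.041 with 10 or more transporter UMIs); the cause was not tested. Setting the median gene ratio to 0 moved values by less than 0.01.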
